A study of Homo sapiens with 6 samples.

Results

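The genes described here build the DNA replication machine, from the proteins that mark replication origins to those that work at the moving fork. The list names 53 genes, and all 53 were measured, among 18239 genes in all. Their members are the probe sets whose only listed symbol is 1 of these genes, 139 probe sets in all, with 14 members seen by a single probe set and up to 7 probe sets for others. A gene's value on an array is the mean of its probe sets. The list is one of gene names, and no measured value enters its rule, although it was drawn up with earlier results of these data known.

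RNA came from LNCaP, a cell line of human prostate adenocarcinoma that responds to androgen, kept in F12 with 7% FBS (fetal bovine serum) in 35 mm wells. The treated group, 3 Affymetrix Human Genome U219 arrays, had 40 µM urolithin A for 24 h, a compound that gut bacteria make from the ellagitannins of fruits and nuts. The control group, also 3 arrays, is called untreated in the sample titles and is described with saline in the treatment protocol, and what urolithin A was dissolved in is not given. All 6 arrays share the line, the medium and the serum. Whether each array had a culture of its own is not stated, so the p-values cover the spread among these arrays alone, and that spread may be technical.

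Replication begins when the origin recognition complex, with CDC6 and CDT1, loads the ring-shaped MCM helicase onto DNA before S phase. The kinase pair CDC7 and DBF4 and cyclin-dependent kinases then turn the ring into the active helicase by adding CDC45 and the GINS complex. DNA polymerase alpha with primase lays down primers, the clamp loader RFC sets the sliding clamp PCNA on them, and polymerases delta and epsilon copy the strands. Many of these genes are known targets of E2F transcription factors, which are active at the start of S phase.

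After urolithin A, 26 of the 53 members fell at an adjusted p under 0.05 by limma, 0 rose, and 27 did not pass. The deepest falls were those of CDC45, POLE2, GINS2, PRIM1 and MCM8, which are helicase factors, polymerase and primase subunits and a relative of the MCM helicase. In all 18239 genes 5.31% fell and 4.85% rose at an adjusted p under 0.05. At an unadjusted p under 0.05, 36 members were lower and 2 higher, namely ORC4 and RPA1, where 11.5% of all genes were lower and 12.5% higher. The median log2 change was -0.36 over the members and 0.01 over all genes, and 48 of 53 members (90.6%) had a negative log2 change, against 46.9% of all genes. The falls were modest, between 1.25-fold and 1.81-fold with a median of 1.41-fold, and 9 of the 26 reached 1.5-fold. The urolithin A arrays lay wholly below the control arrays in 35 members, where 13.7% of all genes did so, and wholly above them in 2 members, where 15.6% of all genes did so. These are bulk RNA samples, in which fewer cells in S phase and less RNA per cell cannot be told apart. Each value is on the log2 scale and was centred on the control median of its probe set, which keeps contrasts between arrays but not transcript levels.

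The count of members that fell was 16 without control replicate 1, 13 without control replicate 2 and 17 without urolithin A replicate 3. Among all genes 613, 581 and 681 fell in those fits, against 969 with all 6 arrays. Of the 26 members, 12 passed in each of the 6 fits that lacked 1 array. The array medians over the members were -0.36, -0.30 and -0.50 in urolithin A replicates 1, 2 and 3, and 0, 0.03 and -0.13 in control replicates 1, 2 and 3. Within its group, urolithin A replicate 3 was the lowest array for 35 members and control replicate 3 for 43 members. The control probe sets for 18S ribosomal RNA were also low on those arrays, at 0.03, -0.22 and -0.48 in urolithin A replicates 1 to 3 and 0.05, 0.01 and -0.45 in control replicates 1 to 3. Without replicate 3 of both groups the median change of the members was -0.37, and 19 members fell, 17 of them among the 26. In that fit 455 of all genes fell.

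Of 8 leukocyte markers 0 passed in limma, also at an unadjusted p under 0.05, and their summed log2 values were 0.19, 1.74 and 4.88 in urolithin A replicates 1, 2 and 3 and 1.54, -0.12 and -0.34 in control replicates 1, 2 and 3, led by HLA-DRA at 3.09 and 1.01 in the highest array of each group. With those arrays, urolithin A replicate 3 and control replicate 1, left out, the members' median log2 change was -0.29 and 5 members fell. Among all genes 385 fell in that fit, against 969 with all 6 arrays. Without replicate 1, 2 or 3 of both groups, 5, 7 and 19 members fell, and 275, 319 and 455 of all genes. Of the 6 fibroblast, 4 endothelial and 2 basal epithelial markers that were measured, 0 passed either way. Among all genes 5.31% fell and 4.85% rose at an adjusted p under 0.05, and 11.5% and 12.5% at an unadjusted p under 0.05. With shares this low, a count of 0 in such short lists says little about other cell types. Of 8 measured markers of the line, 3 fell and 1 rose. KLK2, KLK3 and TMPRSS2, genes that androgen induces, fell 4.19-fold, 1.97-fold and 3.94-fold (adjusted p = 0.000315, 0.00101 and 0.000451), and passed in each of the 6 fits that lacked 1 array. FOLH1, the prostate-specific membrane antigen, rose 1.24-fold (adjusted p = 0.0202) but did not pass without urolithin A replicate 1 or 3 or control replicate 2 or 3 (adjusted p up to 0.0707). The summed log2 values of the 8 were -4.77, -3.85 and -4.32 in urolithin A replicates 1, 2 and 3, against -0.34, -0.22 and 1.03 in control replicates 1, 2 and 3. Their part in the members' falls was not tested. Since levels were removed, these values cannot show whether LNCaP markers were present.

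**Figure D1:**
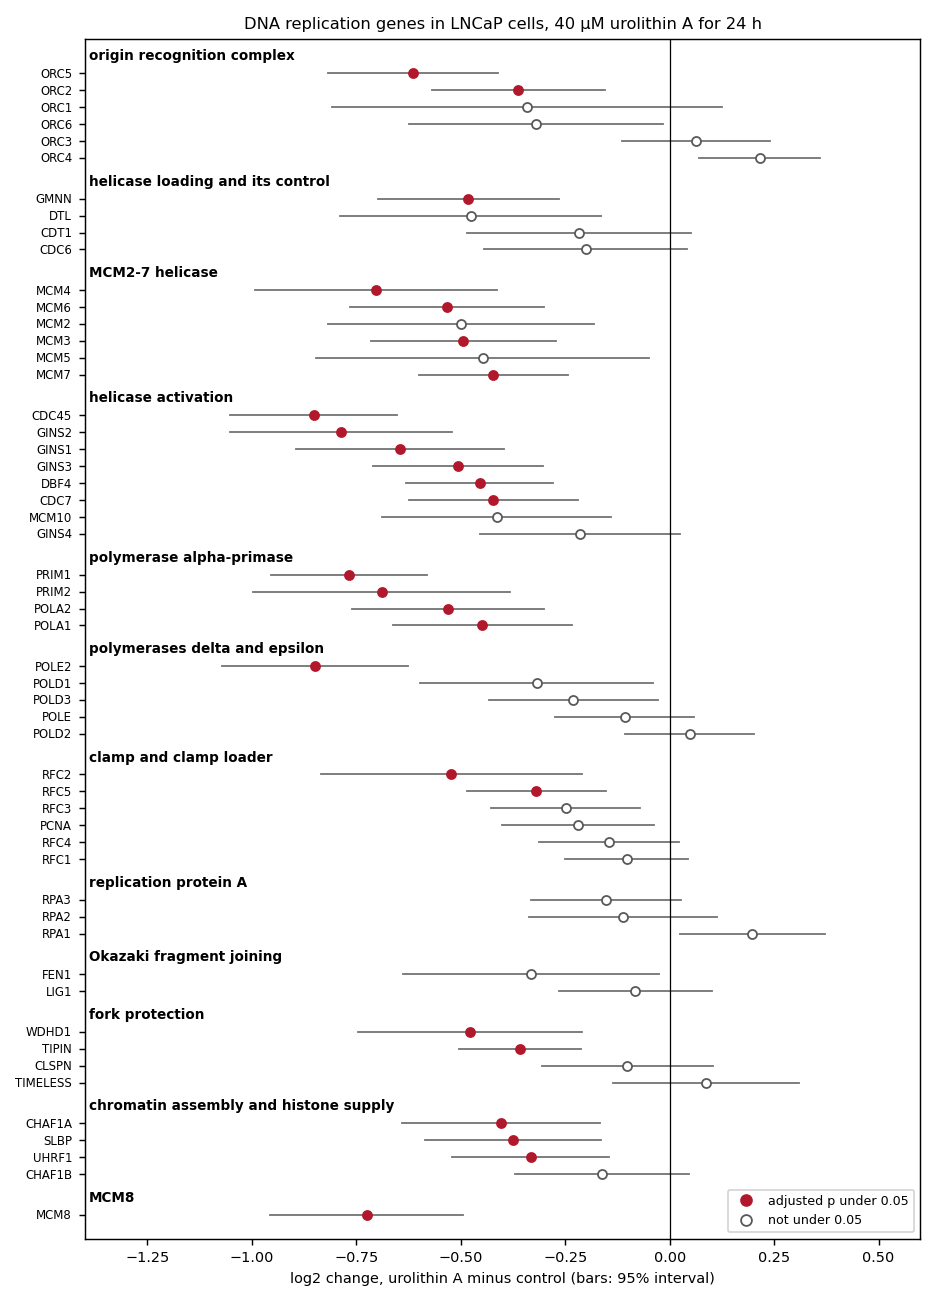
Log2 change (urolithin A minus control) of the 53 members by complex, with 95% intervals from limma over 3 arrays in each group. Filled points passed an adjusted p of 0.05. All 26 filled points lie left of 0, and all 4 subunits of polymerase alpha-primase are filled.

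**Figure D2:**
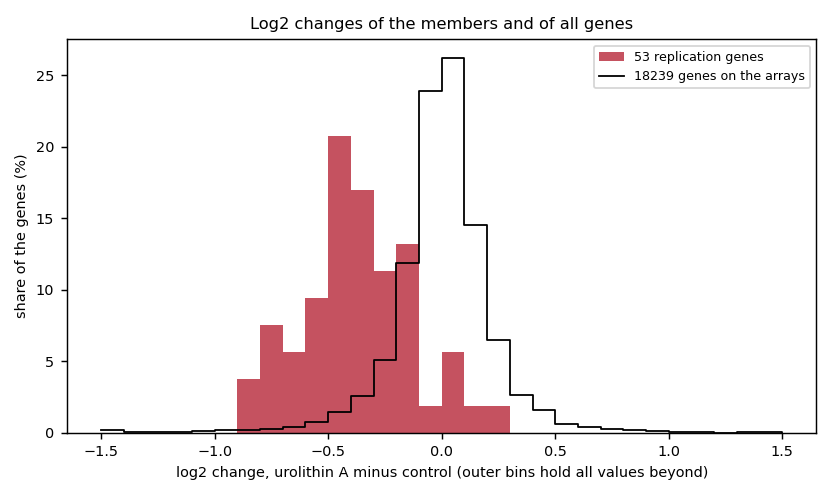
Share of genes (%) by log2 change in bins, bars for the 53 members and line for all 18239 genes. The members centre near their median of -0.36, and all genes near 0.01.

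E2F words are short stretches of DNA that E2F factors are known to bind. Promoters of some members are shown because these words recur in members that fell and in members that did not pass. The promoters come from RefSeq on build GRCh38.p14 and run 5′ to 3′ on the gene's strand. Each spans 250 bases before to 50 bases after a transcription start. The words TTTCCCGC, TTTGGCGC, TTTGCCGC and TTTCGCGC were searched on both strands, and capitals mark a match. Matches on opposite strands can overlap, and a pair of overlapping words then shows as 1 longer run. POLE2 (chr14:49688165-49688464, minus strand), GINS2 (chr16:85688905-85689204, minus strand), MCM6 (chr2:135876394-135876693, minus strand), TIPIN (chr15:66356636-66356935, minus strand) and CDC7 (chr1:91500862-91501161, plus strand) fell and hold at least 1 match. PRIM1 (chr12:56752274-56752573, minus strand) fell and holds none, while PCNA (chr20:5126573-5126872, minus strand) did not pass and holds 1. CDC7, TIPIN and PCNA each have a further listed promoter, not shown, that holds no match.
POLE2: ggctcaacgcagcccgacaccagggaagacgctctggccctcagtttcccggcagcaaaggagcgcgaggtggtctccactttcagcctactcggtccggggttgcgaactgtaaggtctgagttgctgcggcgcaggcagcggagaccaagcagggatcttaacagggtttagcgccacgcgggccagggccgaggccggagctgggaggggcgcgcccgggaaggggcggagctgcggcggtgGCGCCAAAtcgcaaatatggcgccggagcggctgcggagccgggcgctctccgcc
GINS2: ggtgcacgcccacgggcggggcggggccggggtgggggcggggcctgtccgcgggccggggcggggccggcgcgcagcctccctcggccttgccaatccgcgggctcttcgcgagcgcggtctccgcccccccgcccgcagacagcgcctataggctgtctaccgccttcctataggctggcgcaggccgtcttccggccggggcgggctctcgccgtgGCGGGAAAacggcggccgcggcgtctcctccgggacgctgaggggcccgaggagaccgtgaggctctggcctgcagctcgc
MCM6: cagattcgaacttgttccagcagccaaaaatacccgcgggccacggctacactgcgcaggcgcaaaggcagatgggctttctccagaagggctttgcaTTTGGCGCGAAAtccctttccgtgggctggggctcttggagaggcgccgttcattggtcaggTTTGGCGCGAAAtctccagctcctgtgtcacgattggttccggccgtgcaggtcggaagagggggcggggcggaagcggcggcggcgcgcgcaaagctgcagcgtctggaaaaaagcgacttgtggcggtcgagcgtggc
TIPIN: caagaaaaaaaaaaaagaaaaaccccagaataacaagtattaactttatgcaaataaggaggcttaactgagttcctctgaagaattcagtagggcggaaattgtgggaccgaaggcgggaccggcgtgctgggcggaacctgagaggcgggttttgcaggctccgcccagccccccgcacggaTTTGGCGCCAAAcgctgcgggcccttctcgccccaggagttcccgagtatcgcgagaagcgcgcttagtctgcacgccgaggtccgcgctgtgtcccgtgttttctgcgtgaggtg
CDC7: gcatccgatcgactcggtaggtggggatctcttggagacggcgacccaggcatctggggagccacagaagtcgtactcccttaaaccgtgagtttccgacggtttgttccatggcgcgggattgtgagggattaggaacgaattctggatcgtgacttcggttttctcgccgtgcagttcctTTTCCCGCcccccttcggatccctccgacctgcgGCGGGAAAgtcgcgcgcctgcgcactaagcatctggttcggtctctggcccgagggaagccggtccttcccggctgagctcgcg
PRIM1: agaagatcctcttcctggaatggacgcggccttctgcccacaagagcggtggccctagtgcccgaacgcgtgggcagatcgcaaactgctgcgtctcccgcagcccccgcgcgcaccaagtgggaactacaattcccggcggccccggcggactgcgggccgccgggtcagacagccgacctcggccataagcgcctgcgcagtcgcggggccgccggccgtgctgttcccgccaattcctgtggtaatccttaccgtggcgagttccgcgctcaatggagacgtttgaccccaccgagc
PCNA: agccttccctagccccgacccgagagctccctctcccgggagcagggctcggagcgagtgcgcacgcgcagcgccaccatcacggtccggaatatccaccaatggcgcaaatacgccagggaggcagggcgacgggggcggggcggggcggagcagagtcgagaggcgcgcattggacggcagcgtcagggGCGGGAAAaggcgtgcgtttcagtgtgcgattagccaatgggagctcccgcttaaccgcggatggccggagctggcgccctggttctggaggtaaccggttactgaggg

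Such a word stood in at least 1 promoter of 24 of the 47 members with a promoter in the table, or 51.1%. It did so in 5.53% of 14492 genes on the arrays with a promoter there. Of the further replication genes described below, 29 had a promoter there, and 6 of them held such a word (20.7%). The share was 56.0% in members that fell (14 of 25) and 45.5% in members that did not pass (10 of 22). Some genes have several listed promoters. Counted by promoter, the shares were closer, at 42.9% of 35 promoters of members that fell and 40.0% of 25 of members that did not pass. Of 33 matches, 21 began within 100 bases before the start site, and all lay between positions -187 and 34 from it. MCM6 held 4 matches, in overlapping pairs that begin at -152 and -90. TIPIN held an overlapping pair at -66, and CDC7 held separate words at -68 and -34. CDC45, with 3 listed promoters, and PRIM1 had no such word in these windows, although both were among the deepest falls. Only exact matches to the listed words were counted. Other forms of an E2F site were not searched, so a gene without a match may still hold one. The median GC content was 65.3% in member promoters and 62.7% in promoters of genes on the arrays. A match is a description of letters and says nothing about binding in these cells.

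**Figure D3:**
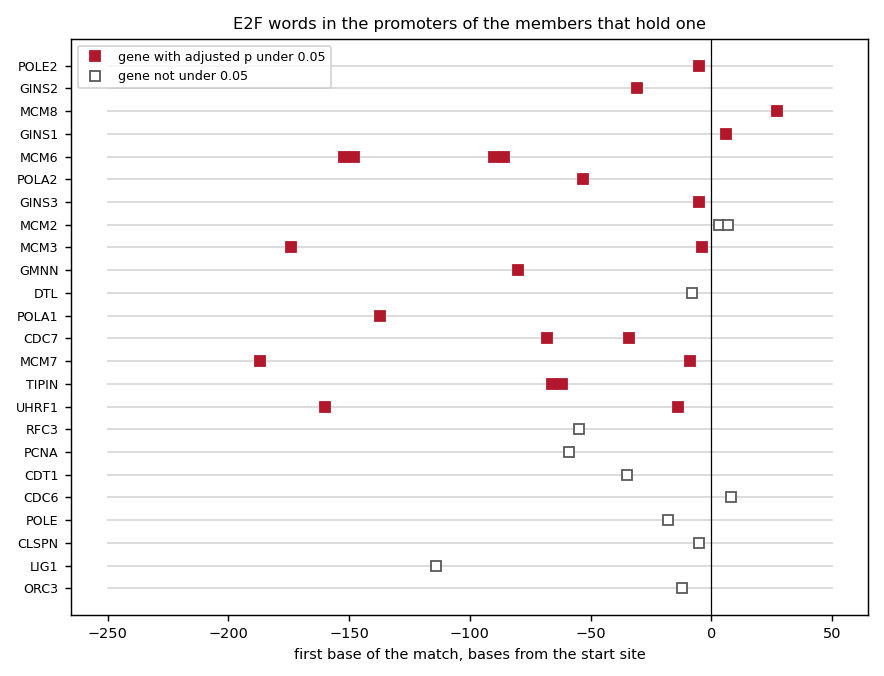
Position of the first base of each E2F word, in bases from the transcription start, in the 24 members that hold one, ordered by log2 change from the deepest fall at the top. Filled squares are members that fell and open squares members that did not pass. UHRF1 has its matches in different listed promoters.

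In the origin recognition complex, which marks the sites where replication can begin, 2 of 6 subunits fell and 4 did not pass. ORC5 had log2 values of -0.62, -0.51 and -0.79 on urolithin A arrays 1, 2 and 3, against -0.13, 0 and 0.05 on control arrays 1, 2 and 3, a 1.53-fold fall (log2 change -0.61, SE 0.09, adjusted p = 0.00453). ORC2 had values of -0.23, -0.41 and -0.53 on urolithin A arrays, against 0.07, -0.09 and -0.07 on control arrays, a 1.29-fold fall (adjusted p = 0.0397). The groups did not overlap for either gene, and all 3 probe sets of ORC5 passed on their own, as did 1 of 3 for ORC2. ORC4 lay on the other side of the controls, at 0.23, 0.16 and 0.16 on urolithin A arrays, against 0.01, -0.02 and -0.08 on control arrays. Its log2 change of 0.21 (95% interval 0.07 to 0.36) did not pass (adjusted p = 0.0715). The 3 probe sets of ORC4 read -0.003, 0.32 and 0.33. ORC3 had a log2 change of 0.06 (interval -0.11 to 0.24). ORC1, the subunit whose level is known to vary over the cell cycle, had a log2 change of -0.34 with a wide interval of -0.81 to 0.12, since its urolithin A arrays read -0.81, 0.02 and -0.55. ORC6 had a log2 change of -0.32 (interval -0.62 to -0.02, adjusted p = 0.184). The call of ORC2 held only without urolithin A replicate 1, at adjusted p between 0.0768 and 0.125 without any of the other 5 arrays.

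Of the 4 genes that load the helicase or limit its loading, 1 fell and 3 did not pass. GMNN, which codes for geminin, the protein that binds CDT1 and blocks relicensing, had values of -0.36, -0.42 and -0.58 on urolithin A arrays, against 0, 0.19 and -0.10 on control arrays. It fell 1.40-fold (log2 change -0.48, SE 0.10, adjusted p = 0.0157), a call lost without control replicate 2 (adjusted p = 0.0501). The loaders themselves did not pass, with a log2 change of -0.20 for CDC6 (interval -0.44 to 0.04) and -0.22 for CDT1 (interval -0.49 to 0.05). For both, control replicate 3 lay among the urolithin A arrays. DTL, which guides CDT1 to its destruction at PCNA, had a log2 change of -0.48 (interval -0.79 to -0.16, adjusted p = 0.0652). Its urolithin A arrays of -0.32, -0.40 and -0.85 all lay below control arrays of 0, 0.05 and -0.19, and it did not pass in any of the 6 fits that lacked 1 array.

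In the MCM2-7 helicase all 6 subunits had negative log2 changes, between -0.70 and -0.42, and 4 of them fell and 2 did not pass. MCM4 fell furthest, at -0.61, -0.63 and -1.001 on urolithin A arrays, against 0.02, 0.09 and -0.25 on control arrays, a 1.63-fold fall (log2 change -0.70, SE 0.13, adjusted p = 0.0114). MCM6 had -0.47, -0.36 and -0.73 on urolithin A arrays, against 0.09, 0.04 and -0.09 on control arrays, and fell 1.45-fold (adjusted p = 0.0137). MCM3 had -0.45, -0.29 and -0.64 on urolithin A arrays, against -0.01, 0.14 and -0.01 on control arrays, and fell 1.41-fold (adjusted p = 0.0154). The groups were apart for each of these genes, and urolithin A replicate 3 was the lowest array in all of them. MCM7 had -0.49, -0.35 and -0.50 on urolithin A arrays, against 0.05, 0.02 and -0.14 on control arrays, and fell 1.34-fold (adjusted p = 0.0123). MCM2 and MCM5 had log2 changes of similar size that did not pass, at -0.50 (interval -0.82 to -0.18, adjusted p = 0.0581) and -0.45 (interval -0.85 to -0.05, adjusted p = 0.157). Their control arrays spread widely, over 0.05, 0.02 and -0.34 for MCM2 and 0.35, 0 and -0.42 for MCM5, and both passed without control replicate 3 (adjusted p = 0.0329 and 0.0306). The call of MCM3 was lost without control replicate 2 (adjusted p = 0.0593), and that of MCM6 without control replicates 1 or 2 (adjusted p = 0.0536 and 0.0511).

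Genes that turn the loaded ring into a running helicase included the deepest fall of the list, with 6 of 8 lower and 2 that did not pass. CDC45, which joins MCM2-7 and GINS in the active helicase, had values of -0.85, -0.81 and -0.96 on urolithin A arrays, against 0.11, 0 and -0.18 on control arrays. It fell 1.81-fold, a log2 change of -0.85 (SE 0.09, adjusted p = 0.00101). On their own, all 3 of its probe sets passed. GINS is a ring of 4 small subunits, of which GINS1, GINS2 and GINS3 fell and GINS4 did not pass. GINS2 had -0.91, -0.71 and -1.05 on urolithin A arrays, against 0.02, 0 and -0.32 on control arrays, and fell 1.73-fold (adjusted p = 0.00484). GINS1 had -0.56, -0.82 and -0.76 on urolithin A arrays, against 0.05, 0.04 and -0.28 on control arrays, and fell 1.56-fold (adjusted p = 0.00862). GINS3 had -0.43, -0.52 and -0.63 on urolithin A arrays, against 0, 0.10 and -0.16 on control arrays, and fell 1.42-fold (adjusted p = 0.01). No array of urolithin A reached the control range in these 4 genes, and their calls held without each single array. GINS4 had a log2 change of -0.22 (interval -0.45 to 0.02), and its 4 probe sets ranged from -0.41 to 0.02.

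The kinase that fires origins was lower in both parts. DBF4, its activating subunit, had -0.40, -0.41 and -0.60 on urolithin A arrays, against 0.02, 0.01 and -0.08 on control arrays, and fell 1.37-fold (log2 change -0.46, SE 0.08, adjusted p = 0.00868). Of its 7 probe sets 6 passed, all lower, while the last one read 0.01. CDC7, the catalytic subunit, had -0.26, -0.34 and -0.42 on urolithin A arrays, against -0.06, 0.23 and 0.09 on control arrays, and fell 1.34-fold (adjusted p = 0.0205). The groups were apart for both genes. None of the 3 probe sets of CDC7 passed on its own, and dropping any of 4 arrays ended its call. Its adjusted p was 0.0604 and 0.0632 without urolithin A replicates 2 and 3, and 0.0656 and 0.0587 without control replicates 2 and 3. MCM10, which helps the helicase start moving, had a log2 change of -0.41 (interval -0.69 to -0.14, adjusted p = 0.0664) and passed without control replicate 3 (adjusted p = 0.0499).

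**Figure D4:**
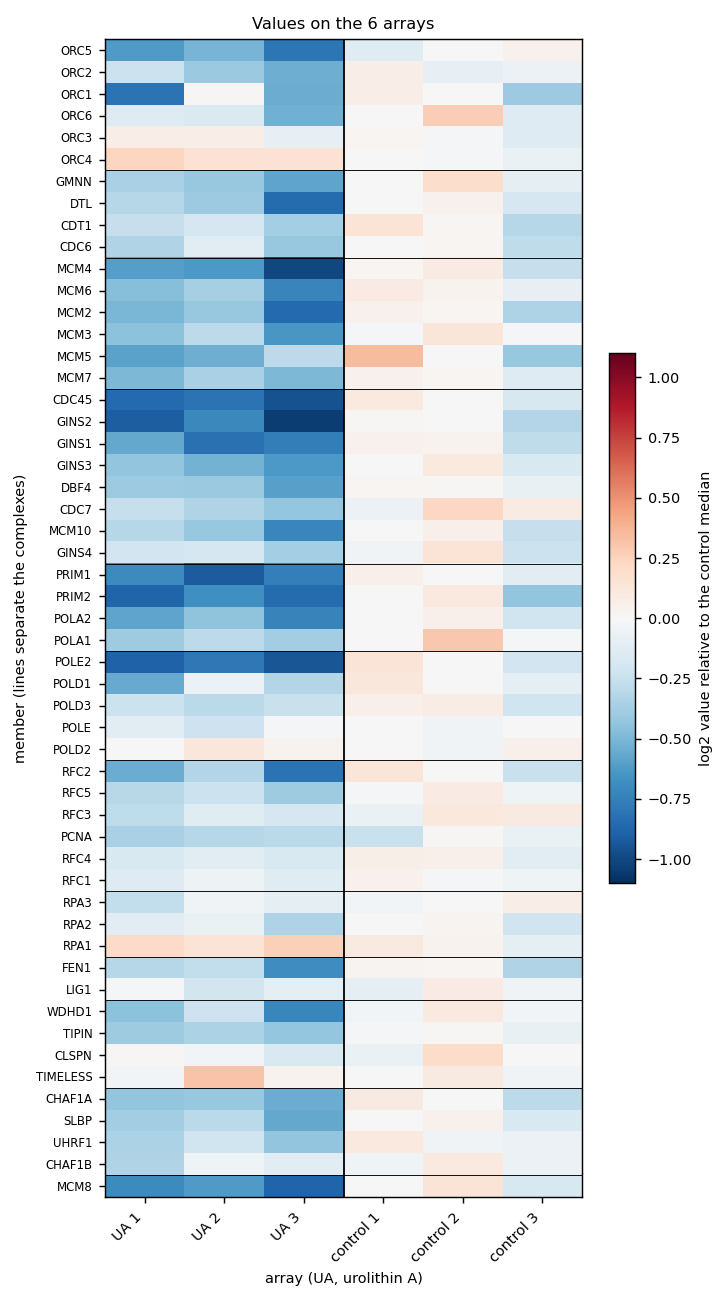
Colour shows the log2 value relative to the control median for each of the 53 members (rows, by complex) on the 6 arrays (columns). The urolithin A columns are blue in most rows, and urolithin A replicate 3 and control replicate 3 are the lowest column of their group for 35 and 43 members.

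Polymerase alpha-primase, which makes the RNA-DNA primers of every new strand, was lower in all 4 of its subunits. PRIM1, the catalytic primase subunit, had values of -0.70, -0.92 and -0.75 on urolithin A arrays, against 0.05, 0 and -0.12 on control arrays. It fell 1.70-fold (log2 change -0.77, SE 0.08, adjusted p = 0.00112). PRIM2, the large primase subunit, had -0.88, -0.67 and -0.85 on urolithin A arrays, against 0, 0.11 and -0.43 on control arrays, and fell 1.61-fold (adjusted p = 0.0151). The groups were apart in both, with control replicate 3 of PRIM2 the closest to the urolithin A arrays. POLA2, the B subunit, had -0.58, -0.44 and -0.74 on urolithin A arrays, against 0, 0.06 and -0.22 on control arrays, and fell 1.44-fold (adjusted p = 0.0137). POLA1, the polymerase itself, had -0.39, -0.29 and -0.38 on urolithin A arrays, against 0, 0.30 and -0.01 on control arrays, and fell 1.36-fold (adjusted p = 0.0199). All 6 probe sets of the 4 genes passed on their own. The call of PRIM1 held without each single array. The others were lost without urolithin A replicate 1 (PRIM2 and POLA1, adjusted p = 0.0561 and 0.0662), without urolithin A replicate 3 (POLA1, adjusted p = 0.0569), without control replicate 1 (PRIM2 and POLA2, adjusted p = 0.0588 and 0.0523) and without control replicate 2 (PRIM2 and POLA2, adjusted p = 0.0502 and 0.0529).

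Among polymerases delta and epsilon, which copy most of the DNA, 1 of 5 subunits fell and 4 did not pass. POLE2, the B subunit of polymerase epsilon, had values of -0.89, -0.78 and -0.95 on urolithin A arrays, against 0.14, 0 and -0.21 on control arrays. It fell 1.80-fold (log2 change -0.85, SE 0.10, adjusted p = 0.00158), next to CDC45 in the list. The call held without each single array. POLE, the catalytic subunit of the same enzyme, read -0.12, -0.22 and -0.02 on urolithin A arrays, against 0, -0.04 and 0 on control arrays, with a log2 change of -0.11 (interval -0.27 to 0.06). The difference between the 2 subunits was not tested, and each is seen by a single probe set. In polymerase delta, the catalytic subunit POLD1 had a log2 change of -0.32 (interval -0.60 to -0.04, adjusted p = 0.151) and the accessory subunit POLD3 of -0.23 (interval -0.43 to -0.03, adjusted p = 0.153). POLD1 passed without urolithin A replicate 2 (adjusted p = 0.0496) and POLD3 without control replicate 3 (adjusted p = 0.0403). The 3 probe sets of POLD3 ranged from -0.56 to 0.13, and 1 of them passed. POLD2 had a log2 change of 0.05 (interval -0.11 to 0.20).

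Of the sliding clamp and the subunits of its loader, 2 of 6 fell and 4 did not pass. RFC2, a small loader subunit, had values of -0.54, -0.32 and -0.81 on urolithin A arrays, against 0.14, 0 and -0.25 on control arrays, and fell 1.44-fold (log2 change -0.52, SE 0.14, adjusted p = 0.0467). RFC5, another small subunit, had -0.30, -0.24 and -0.39 on urolithin A arrays, against -0.02, 0.09 and -0.05 on control arrays, and fell 1.25-fold (adjusted p = 0.0287), the smallest fall that passed. The groups of both were apart. PCNA, the clamp and a common marker of S phase, had -0.36, -0.31 and -0.29 on urolithin A arrays, against -0.25, 0.01 and -0.07 on control arrays. Its groups were apart too, but the log2 change of -0.22 (interval -0.40 to -0.04) did not pass (adjusted p = 0.132). The 2 probe sets of PCNA read -0.30 and -0.14, and the second read -0.50 on control replicate 1. RFC3, RFC4 and RFC1, the large loader subunit, had log2 changes of -0.25 (interval -0.43 to -0.07), -0.15 (interval -0.31 to 0.02) and -0.10 (interval -0.25 to 0.04). The call of RFC2 was lost without urolithin A replicate 1 or 3 or control replicate 1 or 2, at adjusted p between 0.11 and 0.143. That of RFC5 held only without urolithin A replicate 2, at adjusted p between 0.0516 and 0.0976 without any other array.

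Replication protein A, which coats single-stranded DNA, and the enzymes that join Okazaki fragments had 0 members that passed in limma, with 3 and 2 measured. RPA1 and FEN1 had an unadjusted p under 0.05 (0.0301 and 0.0365). RPA1, the large subunit, had 0.21, 0.15 and 0.27 on urolithin A arrays, against 0.10, 0.04 and -0.11 on control arrays. Its groups were apart upward, with a log2 change of 0.20 (interval 0.02 to 0.37, adjusted p = 0.151), and its 2 probe sets read 0.43 and -0.04. RPA2 and RPA3 had log2 changes of -0.11 (interval -0.34 to 0.11) and -0.15 (interval -0.33 to 0.03). FEN1, the flap nuclease that trims fragment ends, had -0.31, -0.27 and -0.68 on urolithin A arrays, against 0.03, 0.02 and -0.33 on control arrays. Control replicate 3 lay below 2 of its urolithin A arrays, and the log2 change of -0.33 (interval -0.64 to -0.03) did not pass (adjusted p = 0.171). LIG1, the ligase that seals the fragments, had a log2 change of -0.08 (interval -0.27 to 0.10), and its 6 probe sets ranged from -0.37 to 0.11.

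In the group of fork protection factors 2 of 4 fell. TIPIN, which holds the fork complex together with TIMELESS, had values of -0.39, -0.35 and -0.43 on urolithin A arrays, against -0.01, 0.01 and -0.08 on control arrays. It fell 1.28-fold (log2 change -0.36, SE 0.06, adjusted p = 0.0109). The call held without each single array. TIMELESS, its partner, had -0.03, 0.31 and 0.04 on urolithin A arrays, against 0, 0.10 and -0.04 on control arrays, with a log2 change of 0.09 (interval -0.13 to 0.31). WDHD1, which links the helicase to polymerase alpha, had -0.45, -0.23 and -0.71 on urolithin A arrays, against -0.03, 0.11 and -0.03 on control arrays, and fell 1.39-fold (adjusted p = 0.0368). Its groups were apart, but its 2 probe sets read -0.82 and -0.14. The call of WDHD1 held only without urolithin A replicate 2, at adjusted p between 0.0699 and 0.119 without any other array. CLSPN, the checkpoint mediator claspin, had a log2 change of -0.10 (interval -0.31 to 0.10).

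Genes that restore chromatin behind the fork were lower in 3 of 4 cases, by small amounts. CHAF1A, the large subunit of the histone chaperone CAF-1, had values of -0.43, -0.42 and -0.55 on urolithin A arrays, against 0.10, 0 and -0.29 on control arrays, and fell 1.32-fold (log2 change -0.40, SE 0.10, adjusted p = 0.043). SLBP, which binds the stem-loop of histone mRNAs, had -0.38, -0.30 and -0.57 on urolithin A arrays, against 0, 0.05 and -0.17 on control arrays, and fell 1.30-fold (adjusted p = 0.0366). UHRF1, which reads hemimethylated DNA and brings the maintenance methyltransferase, had -0.34, -0.21 and -0.43 on urolithin A arrays, against 0.11, -0.04 and -0.06 on control arrays, and fell 1.26-fold (adjusted p = 0.0379). The groups were apart in all of these genes, but no probe set of CHAF1A or SLBP passed on its own, and 1 of the 3 probe sets of UHRF1 read 0.09. CHAF1B, the middle subunit of CAF-1, had a log2 change of -0.16 (interval -0.37 to 0.05). The call of CHAF1A held only without control replicate 3 (adjusted p between 0.0881 and 0.132 without any other array) and that of UHRF1 only without urolithin A replicate 2 (between 0.0631 and 0.119). That of SLBP was lost without urolithin A replicate 1 or 3 or control replicate 1 or 2 (between 0.083 and 0.12).

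MCM8, a relative of the MCM helicase that works with MCM9 in recombination repair rather than in the main ring, fell 1.65-fold. Its values were -0.70, -0.63 and -0.88 on urolithin A arrays, against 0, 0.14 and -0.18 on control arrays (log2 change -0.73, SE 0.10, adjusted p = 0.00374). The groups were apart, 4 of its 5 probe sets passed, and the call held without each single array.

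Across the list, 47 of the 139 probe sets fell at an adjusted p under 0.05 when each was tested alone in limma, and 0 rose, against 4.44% of all 45253 probe sets with a single symbol that fell. That is 33.8% of the members' probe sets. At an unadjusted p under 0.05, 87 were lower and 3 higher, of ORC4 and RPA1, where 11.2% of all these probe sets were lower and 11.6% higher. Of the 26 members that fell, 22 had at least 1 probe set that passed, and in 24 every probe set had a negative log2 change, the exceptions being DBF4 and UHRF1. The gene values are means of these same probe sets, and some of the 26 have only 1, so these counts are not separate evidence. In MCM6 a probe set stood apart from the others, with readings of -0.82, -0.68 and -0.09. Probe sets of a gene can see different transcript forms or share sequence with other genes, and their part in these differences was not tested.

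**Figure D5:**
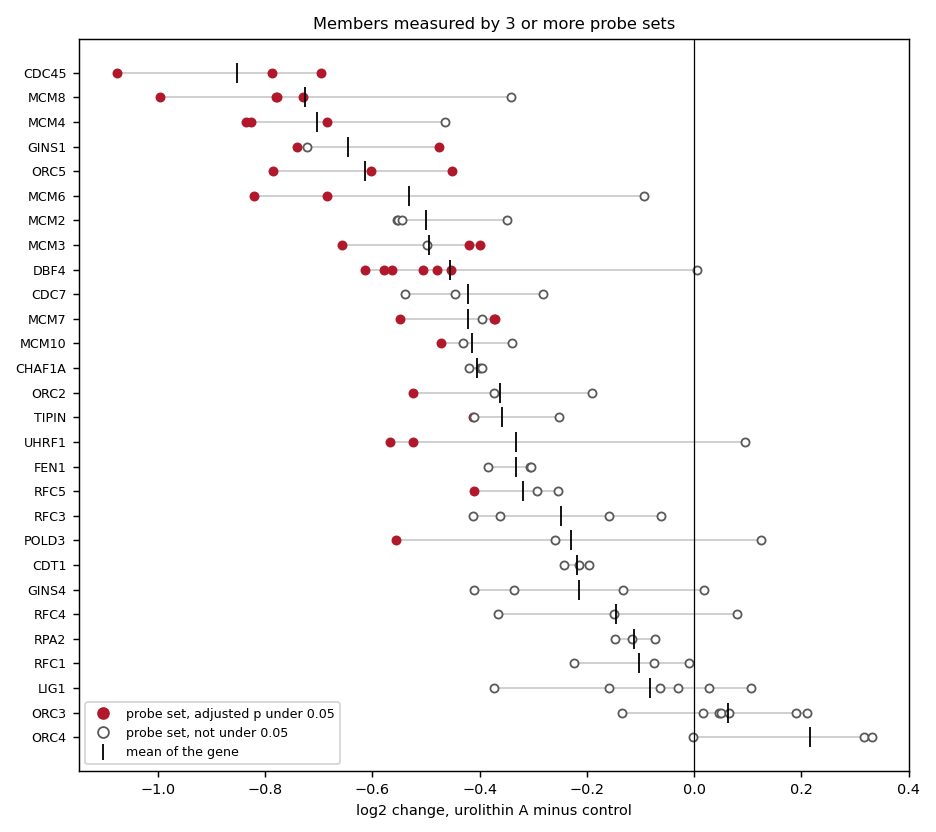
Log2 change (urolithin A minus control) of every probe set of the members with 3 or more probe sets, filled where it passed an adjusted p of 0.05, with the gene's mean as a bar. The 3 probe sets of CDC45 and of ORC5 are all filled, while the lone right-hand point of DBF4 lies at 0.01 and that of UHRF1 at 0.09.

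Beyond the members, 38 further genes of replication and its control were measured, of which 7 fell, 0 rose and 31 did not pass in limma. The share that fell was 18.4%, against 5.31% of all genes. At an unadjusted p under 0.05, 17 of them were lower and 1 higher, where 11.5% and 12.5% of all genes were. Their median log2 change was -0.17. ATAD5, which takes PCNA off DNA after synthesis, had values of -0.87, -0.89 and -0.92 on urolithin A arrays, against 0.07, -0.12 and 0 on control arrays. It fell 1.84-fold (log2 change -0.88, SE 0.07, adjusted p = 0.000376), with groups far apart, but is seen by a single probe set. CDK2, the kinase that drives cells into S phase, fell 1.49-fold (adjusted p = 0.00361). Both calls held without each single array. CCNE2, the cyclin E2 partner of CDK2, had -0.55, -0.74 and -1.17 on urolithin A arrays, against 0, 0.07 and -0.36 on control arrays, and fell 1.65-fold (adjusted p = 0.0278). The primer-removing nuclease subunit RNASEH2A fell 1.33-fold, the alternative clamp loader subunits DSCC1 and CHTF18 fell 1.30-fold and 1.20-fold, and the ubiquitin ligase scaffold CUL4B fell 1.27-fold, at adjusted p between 0.0225 and 0.0381. The calls of CCNE2, RNASEH2A, CUL4B, DSCC1 and CHTF18 were each lost when any of 4 or 5 of the 6 arrays was dropped (adjusted p up to 0.117). Every array but control replicate 3 and urolithin A replicate 2 ended the call of RNASEH2A, and every array but control replicate 2 and urolithin A replicate 3 that of CUL4B. For CCNE2 the exceptions were urolithin A replicate 1 and control replicate 3, for DSCC1 urolithin A replicate 2, and for CHTF18 urolithin A replicate 3. The 3 probe sets of CUL4B ranged from -0.70 to 0.08, and 2 of them passed. The count of 7 was 2 without control replicate 1, 3 without control replicate 2, 4 without urolithin A replicate 1 and 4 without urolithin A replicate 3. Among all genes 613, 581, 640 and 681 fell in those fits, against 969 with all 6 arrays.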

How the data were processed

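Total RNA of 6 LNCaP samples was measured on Affymetrix U219 arrays. The authors deposited log2 values of 49386 probe sets made with RMA, per the submitters' processing notes; the version and build are not given in the sources used here. The 3 control arrays have a median of exactly 0 in each of the 49386 probe sets, which shows that the control median was subtracted. The log base of 2 was taken from RMA. The number of arrays limits the precision, and no array was a copy of another: each pair had exactly equal values in 6 to 23 of the 49386 probe sets. Probe sets were named through the platform annotation: 45253 have 1 symbol, 1327 several and 2713 none, apart from 93 control probe sets.

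A gene's value was the mean of its probe sets with that single symbol. Limma 3.58.1 in R 4.3.3 (lmFit, eBayes, two-sided) compared urolithin A with control over 18239 genes, with Benjamini-Hochberg adjustment and a threshold of 0.05. Intervals are 95%. The fit was tested on simulated data in which genes vary independently, which checks the code and not how the fit behaves on these arrays. The members and lists were chosen with earlier results of these data known. Array values were given for members that passed and, where no member of a complex passed, for the one with the smallest p; other members are given as changes with intervals. PCNA, POLE, TIMELESS, ORC4, ORC1, DTL and the MCM2 and MCM5 controls were shown after their values were seen. Of the further replication genes, up to 8 that passed were named. Alternatives were a replicate block, arrays left out, other summaries of probe sets, median centring, other priors, array weights and stricter thresholds; leaving out the arrays with the highest HLA-DRA was added after the data were seen.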

Additional observations from a re-analysis of the deposited data

How the results depend on the processing

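Members that fell numbered 26, with 969 lower and 885 higher among all genes and 7 lower among the further replication genes. Without single arrays these counts ranged from 13 to 25, from 581 to 681, from 482 to 628 and from 2 to 5. With 2 arrays left in each group, they were 5, 275, 191 and 1 without replicate 1, 7, 319, 220 and 2 without replicate 2, 19, 455, 386 and 3 without replicate 3, and 5, 385, 320 and 2 without urolithin A replicate 3 and control replicate 1, the last chosen after seeing the data. Fewer arrays leave fewer residual degrees of freedom. Without moderation the counts were 3, 298, 262 and 2, at an adjusted p under 0.01 they were 8, 370, 272 and 2, and with a minimum of 1.5-fold 9, 270, 179 and 2. With a trended and robust prior the counts were 20, 718, 574 and 5, and with the median of probe sets 23, 965, 856 and 8. With every probe set tested alone, genes with a probe set that passed numbered 24, 1301, 1402 and 12. Why these counts moved was not tested. No member was called higher under any of these settings. The members' median log2 change lay between -0.44 and -0.29 under all settings that recompute it.

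With the replicate number as a block, 30 members fell, all 26 of them included, and DTL, MCM2, MCM10 and FEN1 passed too (adjusted p = 0.0202, 0.00813, 0.017 and 0.026). Among all genes 1003 fell and 860 rose with the block, and 8 of the further replication genes fell. The labels do not say that the replicate numbers pair the arrays, so the arrays were not taken as pairs in the main fit. Deviations of same-numbered arrays correlated at 0.08, 0.02 and 0.20, and those of differently numbered arrays between -0.14 and 0.07. Whether same-numbered arrays share an effect was not tested. MCM5, POLD1 and POLD3 also passed in some fits without an array. The sign turned, in no case with a call, for GINS4 without probe sets ending in _s_at or _x_at (0.0186), POLD2 and LIG1 without replicate 2 of both groups (-0.0119 and 0.0229), RPA2 without urolithin A replicate 3 and control replicate 1 (0.00186, and from there down to -0.191 without other arrays) and TIMELESS without urolithin A replicate 2 (-0.0157, and up to 0.154 without other arrays).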

Other observations

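Markers of proliferation other than the list moved unevenly. MKI67, which is present in cycling cells, fell 1.32-fold (log2 change -0.40, SE 0.07, adjusted p = 0.0105). CDK1, the mitotic kinase, had a log2 change of -0.16 (95% interval -0.32 to 0.00, adjusted p = 0.217), CCNB1, its cyclin partner, of -0.24 (interval -0.52 to 0.04) and TOP2A, the topoisomerase that untangles sister chromatids, of 0.01 (interval -0.16 to 0.19).

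Other short words were counted in the same promoter windows. The inverted CCAAT word ATTGG, searched on both strands, stood in a promoter of 28 of 47 members (59.6%). The share was 42.4% in 14492 genes on the arrays with a promoter in the table. It was 48.3% in the 29 further replication genes with a promoter there. The CHR word TTTGAA, known from promoters of mitotic genes, stood in that of 1 member (2.13%). The share was 16.0% in the genes on the arrays and 17.2% in the further replication genes.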
